A study of Mus musculus with 27 samples.

Results

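CAST/EiJ is an inbred strain derived from wild-caught castaneus mice, and its 3 hepatocyte libraries were compared here with the 24 libraries of 8 other inbred strains, in a series of 27 libraries. The members are the libraries whose labels give the strain CAST/EiJ, replicates 1, 4 and 5. Each of the other strains, 129S1/SvImJ, A/J, C57BL/6J, DBA/2J, NOD/ShiLtJ, NZO/HlLtJ, PWK/PhJ and WSB/EiJ, had 3 libraries. All mice were females at 12 weeks of age, the tissue was liver, the labelled cell type was hepatocytes, and no treatment or engineered allele is given for any strain. The labels call the libraries biological replicates without saying that each came from another mouse, so p-values measure the spread between these libraries. According to the design text, hepatocyte histone modifications and DNA methylation of these mice were also surveyed, to relate them and expression to genetic variation. PWK/PhJ and WSB/EiJ are the other wild-derived strains of the set, and the remaining strains are classical laboratory strains.

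Hepatocytes make most of the plasma proteins, synthesise and export cholesterol as lipoprotein and bile acid, and clear foreign compounds with large enzyme families that differ between inbred strains. Cholesterol synthesis is switched on when the membrane sensor Scap escorts the transcription factor Srebf2 out of the endoplasmic reticulum, and Insig proteins hold it back. Interferons act through Ifnar1 and Ifnar2, whose signal reaches Stat2 and Irf9, and these help to bind a response element in the promoters of antiviral genes. Low activity of the last pathway is present in unstimulated tissue.

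The CAST/EiJ libraries held 29268524, 28634751 and 17015932 estimated counts, and those of the other strains from 23757469 to 35078483. Replicates of CAST/EiJ were close to each other, with correlations across genes of 0.978 to 0.984 and a median SD of 0.190 log2 units, within the range of the other strains (0.177 to 0.312). No label gives a batch or a date. Defining hepatocyte genes were abundant: Alb (albumin) had 90884, 88504 and 80416 normalized counts (CPM, counts scaled to a common library total after TMM normalization), with 91026 to 266109 in the other libraries. The 15 hepatocyte markers summed to 126096 to 139541 CPM in CAST/EiJ and to 142143 to 386040 elsewhere. All 3 CAST/EiJ libraries lay below the 24 others in this sum, most of which was Alb in CAST/EiJ. The mean level of the 15 was 11.15 to 11.31 log2 CPM in CAST/EiJ and 11.15 to 12.02 elsewhere, so the groups overlapped. By that measure the PWK/PhJ mean, 11.22, was below that of CAST/EiJ, 11.24. Of the 15, 8 were lower and 1 (Cps1) was higher in CAST/EiJ (none without CAST/EiJ replicate 1 or 4), with a median log2 fold change of -0.54.

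Of 14482 genes tested, 5488 (37.9%) differed between CAST/EiJ and the mean of the 8 other strain means, 2917 higher (20.1%) and 2571 lower (17.8%), at an adjusted p under 0.05 in edgeR's quasi-likelihood test. Such genes are described as higher, lower or called below. A stricter group, called particular to CAST/EiJ, differed from each of the 8 strains in 1 direction. It held 491 genes (3.39%), of which 253 were higher (1.75%) and 238 lower (1.64%). In 487 of the 491 no CAST/EiJ library overlapped any of the other 24, as in 1314 of all 14482 genes tested. By the same rules, 4950 genes (34.2%) were called and 356 (2.46%) were particular for PWK/PhJ, and 3581 (24.7%) and 100 (0.691%) for WSB/EiJ; these counts share libraries and were not tested against each other. Without CAST/EiJ replicate 1, 158 genes were particular and lower in place of 238. With the Kupffer cell and endothelial marker levels as covariates, 133 were particular and higher and 154 lower. The median absolute log2 fold change of the particular genes, which were chosen for their differences, was 3.24, and the difference was at least 8-fold in 166 of those higher and 95 of those lower. The plot of counts per library shows 8 of these genes.

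**Figure D1:**
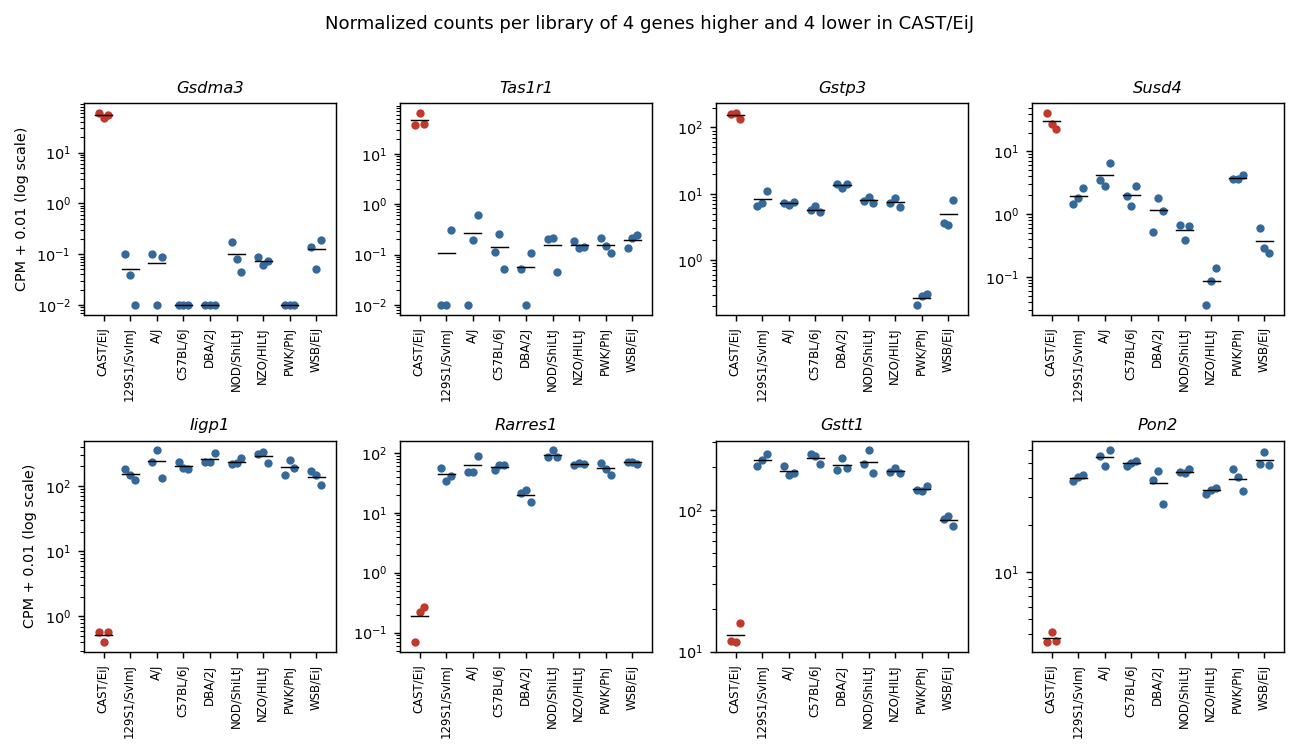
Normalized counts per library (points; CPM + 0.01, log axis) and strain means (lines) of Gsdma3, Tas1r1, Gstp3 and Susd4, higher in CAST/EiJ, and of Iigp1, Rarres1, Gstt1 and Pon2, lower in CAST/EiJ. In each panel the 3 CAST/EiJ libraries (red) lie apart from all 24 others (blue).

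Cholesterol genes were lower in CAST/EiJ as a group. Of 29 tested genes of cholesterol synthesis and uptake, 23 were lower and none higher, 7 of them particular to the strain, and the median log2 fold change was -1.47 where that of all genes was -0.01. The mean level of the list was 5.24 to 5.37 log2 CPM in the CAST/EiJ libraries and 5.87 to 7.62 in the other 24, so the groups did not overlap. The nearest strain was 129S1/SvImJ, with a mean of 6.24.

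The genomic sequence before the start of these genes is shown because the pathway is controlled there, by Srebf2 together with factors that bind CCAAT boxes. RefSeq promoter windows (GRCm38.p6, the C57BL/6J reference; 250 bases before to 50 after the start) were matched for 17 of the 23 lower members. The CCAAT box, searched as CCAAT on both strands, was in the windows of 16 of the 17 (94.1%) and of 41.1% of all 27025 genes with a window. A core of the sterol regulatory element, TCACNCCAC on both strands, was found for 1 of the 17, Hmgcs1, and for 1.44% of all genes. A match of both motifs on shared bases occurred in 2 windows of the whole set. Capitals mark the CCAAT boxes in the window of Msmo1 (chr8:64733529-64733828, minus strand) and the sterol element core in that of Hmgcs1 (chr13:119690101-119690400, plus strand), both written 5′ to 3′ along the gene. The windows do not show the sequence that CAST/EiJ carries. Members of the list that were not lower were not counted apart, so the shares of genes with a match do not bear on being lower in CAST/EiJ.
Msmo1: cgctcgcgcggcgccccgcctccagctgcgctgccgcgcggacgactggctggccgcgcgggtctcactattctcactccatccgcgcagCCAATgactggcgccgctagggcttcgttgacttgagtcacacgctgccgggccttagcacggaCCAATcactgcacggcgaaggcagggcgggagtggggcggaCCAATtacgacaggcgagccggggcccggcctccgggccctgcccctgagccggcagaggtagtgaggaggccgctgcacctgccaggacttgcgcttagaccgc
Hmgcs1: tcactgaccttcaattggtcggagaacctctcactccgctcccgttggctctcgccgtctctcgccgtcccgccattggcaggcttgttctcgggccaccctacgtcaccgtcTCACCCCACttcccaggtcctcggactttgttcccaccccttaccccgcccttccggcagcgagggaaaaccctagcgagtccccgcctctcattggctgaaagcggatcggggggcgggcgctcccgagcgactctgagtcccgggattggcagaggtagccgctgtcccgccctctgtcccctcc

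All 8 enzymes of the first stage, up to squalene, were lower in CAST/EiJ. Hmgcs1, which makes the precursor of mevalonate, had 84.1, 47.3 and 45.6 CPM in replicates 1, 4 and 5, and 59.0 to 441 CPM (median 147) in the other libraries. CAST/EiJ replicate 1 lay inside the range of the others and replicates 4 and 5 below it (log2 fold change -1.50, SE 0.35, adjusted p = 0.00134). Pmvk, phosphomevalonate kinase, was particular to CAST/EiJ with 4.08, 4.17 and 3.56 CPM, where the other libraries had 8.83 to 51.9 CPM (median 27.7). All CAST/EiJ libraries were below all others, and the log2 fold change was -2.70 (SE 0.25, adjusted p = 3.67e-09). Fdps, farnesyl diphosphate synthase, had the largest difference of this stage, -2.81 (SE 0.48), with 15.4 to 22.6 CPM beside 19.9 to 332.

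Of the 11 enzymes from squalene to cholesterol 10 were lower, 4 of them particular to CAST/EiJ. Msmo1, the sterol C4 methyl oxidase whose window is shown above, had 12.8, 11.3 and 11.2 CPM in CAST/EiJ. It had 24.2 to 357 CPM (median 119.9) in the other libraries, with no overlap, and a log2 fold change of -3.42 (SE 0.53, adjusted p = 1.47e-05). Dhcr7, which makes cholesterol from its immediate precursor, had 24.7, 16.97 and 20.2 CPM beside 57.5 to 286 (median 113) and a log2 fold change of -2.57 (SE 0.40). Sc5d, a sterol desaturase, had 127.8, 104.1 and 123.9 CPM beside 248 to 1020 (median 426), again without overlap. Hsd17b7, a sterol reductase, was the remaining particular enzyme, at -1.53 (SE 0.21). Cyp51, Sqle and Lss were lower than the mean of the strains, with log2 fold changes of -2.70, -2.49 and -1.47, but were not particular to CAST/EiJ.

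Among the regulators, Srebf2, Scap and Insig1 were lower and Insig2 was not called. Insig1, which is itself a target of Srebf2, had 125.6, 66.0 and 78.8 CPM, where the other libraries had 211 to 905 CPM (median 454), with no overlap and a log2 fold change of -2.42 (SE 0.34, adjusted p = 3.89e-06). Srebf2 itself differed less, at -0.76 (SE 0.19), with 47.4 to 51.6 CPM in CAST/EiJ and 55.1 to 134 elsewhere. Of the 6 genes of uptake, 2 were lower. Mylip, Scarb1, Lrp1 and Stard4 were not called. In the plot of the list Insig2 and Mylip are the members right of 0.

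**Figure D2:**
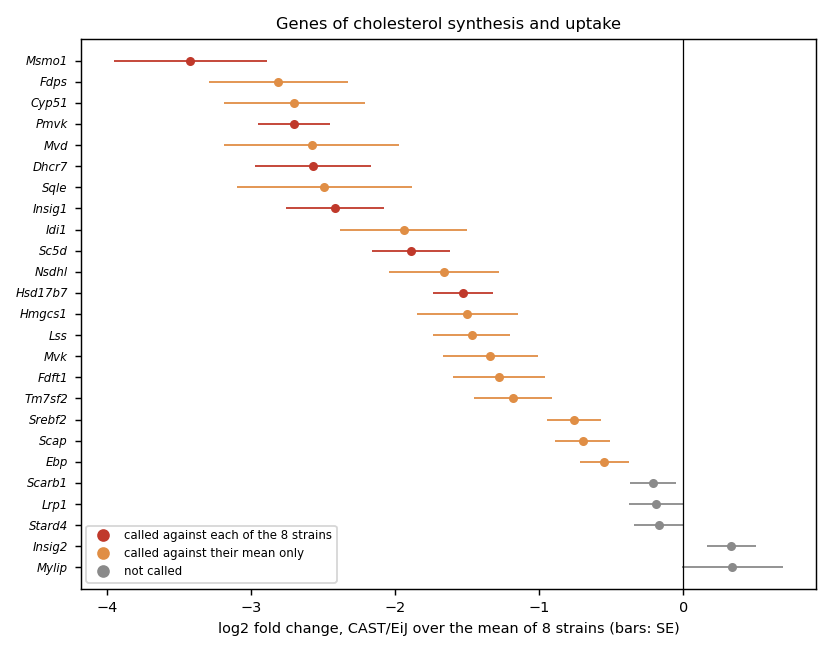
Log2 fold change of CAST/EiJ over the mean of 8 strains (points, bars SE) for 25 of the 29 genes of cholesterol synthesis and uptake. No member is called to the right of 0; the 6 particular members shown (red) run from -1.53 for Hsd17b7 to -3.42 for Msmo1.

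Neighbouring lipid lists had medians nearer 0. Of 21 lipogenesis genes 9 were lower and none higher, with a median of -0.60, and 5 and 4 were lower without CAST/EiJ replicate 4 or 5. Of 25 genes of desaturation, elongation and lipid droplets 11 were lower and 4 higher, with a median of -0.69. Fitm1, a lipid droplet protein, had no count in CAST/EiJ and 0.0332 to 6.08 CPM elsewhere, at least 20.2-fold lower against the floor of 3 counts per library, and was not particular to the strain. Scd1, the stearoyl-CoA desaturase, had 1524, 386 and 634 CPM in CAST/EiJ replicates 1, 4 and 5, and 1036 to 13081 CPM (median 2795) in the others. Replicate 1 overlapped the others and the remaining pair did not (log2 fold change -1.90, SE 0.45, adjusted p = 0.00163). Fasn, fatty acid synthase, was lower at -0.73 (SE 0.28), whereas its regulator Srebf1 (-0.29, SE 0.25) and Acaca (0.26, SE 0.14) were not called. Of 32 apolipoproteins and lipases, a list that shares Apol9a and Apol9b with the interferon-stimulated genes, 14 were lower and 3 higher. They included Apoe, the remnant ligand, at -0.66, and Apoa4 at -1.34, while Apoa1 and Apob were not called.

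Interferon-stimulated genes were the next group. Of 48 tested, 34 were lower in CAST/EiJ and 3 higher, 9 of the lower ones particular to the strain, with a median log2 fold change of -1.73. The mean level of the list was 0.18 to 0.51 log2 CPM in the CAST/EiJ libraries and 0.81 to 2.98 in the others, again without overlap. The nearest strain mean was 0.94 in 129S1/SvImJ. Of the 48, 24 had whole counts in all libraries, that is no reads divided between genes, and 20 of those 24 were lower.

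Promoter windows were matched for 25 of the 34 lower members and are shown because the response element lies there. Members that were not lower were not counted apart, so the shares below do not bear on being lower in CAST/EiJ. The core of the interferon-stimulated response element, GAAANNGAA on both strands and counted with overlaps, was in the windows of 17 of the 25 (68%) and of 9.76% of all 27025 genes. Capitals mark its matches for Isg15 (chr4:156200769-156201068, minus strand) with 3 overlapping matches, and for Ddx60 (chr8:61927837-61928136, plus strand) with 2.
Isg15: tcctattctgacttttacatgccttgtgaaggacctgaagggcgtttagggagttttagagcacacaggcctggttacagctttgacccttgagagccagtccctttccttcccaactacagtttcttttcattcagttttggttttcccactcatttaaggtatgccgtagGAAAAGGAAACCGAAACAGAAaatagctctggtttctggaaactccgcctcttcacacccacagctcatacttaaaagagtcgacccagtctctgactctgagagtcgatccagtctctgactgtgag
Ddx60: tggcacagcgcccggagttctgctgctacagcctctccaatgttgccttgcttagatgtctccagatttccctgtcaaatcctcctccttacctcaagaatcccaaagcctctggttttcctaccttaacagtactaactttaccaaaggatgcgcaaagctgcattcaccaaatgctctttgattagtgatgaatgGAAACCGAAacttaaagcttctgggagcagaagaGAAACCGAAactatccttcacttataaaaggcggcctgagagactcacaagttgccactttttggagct

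Isg15, a ubiquitin-like protein attached to other proteins during antiviral responses, had 0.443, 0.332 and 0.361 CPM in CAST/EiJ and 0.797 to 12.1 CPM (median 3.14) in the other libraries. The groups did not overlap (log2 fold change -3.21, SE 0.41, adjusted p = 8.29e-07). Usp18, the protease that removes Isg15, had 0.532, 0.302 and 0.928 CPM beside 1.43 to 18.7 (median 5.45), at -3.36 (SE 0.42). Ddx60, an RNA helicase, had 0.443, 0.302 and 0.876 CPM beside 1.53 to 10.3, at -3.37 (SE 0.37), also without overlap. Ifi44 held at most 1 count in any CAST/EiJ library and had 0.315 to 10.2 CPM elsewhere, which makes it at least 23.8-fold lower against a floor of 3 counts per library. Apol9a and Apol9b, interferon-induced members of the apolipoprotein L family whose reads were divided between copies, summed to 0.709, 0.272 and 0.980 CPM in CAST/EiJ and to 10.7 to 216 in the others. The further particular members were Rtp4, Samd9l, Dhx58 and Ifi35, from -2.63 to -1.32.

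The 3 exceptions were Mx1 and Mx2, GTPases that block virus replication, and Mndal. Mx2 had 23.7, 20.8 and 46.0 CPM in CAST/EiJ and 0.0255 to 50.7 (median 4.09) in the others, with PWK/PhJ above CAST/EiJ at a mean of 37.2 CPM. It was higher than the mean of the strains by 3.14 on the log2 scale (SE 0.18) but was not particular to CAST/EiJ. Mx1 was higher by 0.91 (SE 0.32), at 1.09 to 2.42 CPM.

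Of 25 tested genes of interferon signalling and nucleic acid sensing, 13 were lower and 1, Mavs, was higher. Irf7, the factor that amplifies interferon production, had 1.69, 1.39 and 1.29 CPM in CAST/EiJ and 3.87 to 42.4 CPM (median 16.3) in the others, and was particular to the strain (log2 fold change -3.19, SE 0.33, adjusted p = 3.37e-08). Irf5 was the other particular member, at -4.23 (SE 0.49), and its counts were not whole in 24 libraries. The receptor chains Ifnar1 and Ifnar2 were lower at -0.79 and -0.46, and Irf9 at -1.18, whereas Stat2 (0.25, SE 0.14) was not called.

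Kupffer cells, the macrophages of the liver, also express interferon-stimulated genes. The 14 Kupffer markers, none of them at 0 in all CAST/EiJ libraries, summed to 67.0 to 80.3 CPM in CAST/EiJ. In the other libraries they summed to 38.3 to 475 CPM (median 132), so CAST/EiJ lay inside their range. Their mean level was 1.38 to 1.53 log2 CPM in CAST/EiJ and 0.73 to 4.00 in the others. By that measure the CAST/EiJ mean, 1.45, was below all 8 other strain means, of which 129S1/SvImJ had the lowest, 1.63. The median log2 fold change of the markers was -0.98, none was above -0.46, and 7 of the 14 were lower. Without CAST/EiJ replicate 1, 4 or 5 in turn, 3, 3 and 1 of them were lower. With Kupffer and endothelial marker levels as covariates, 27 of the 48 interferon-stimulated genes were lower and 4 higher, and 21 of the 29 cholesterol genes were lower and 1 higher. Here as elsewhere in these bulk libraries, fewer cells of a type and less RNA per cell cannot be told apart.

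**Figure D3:**
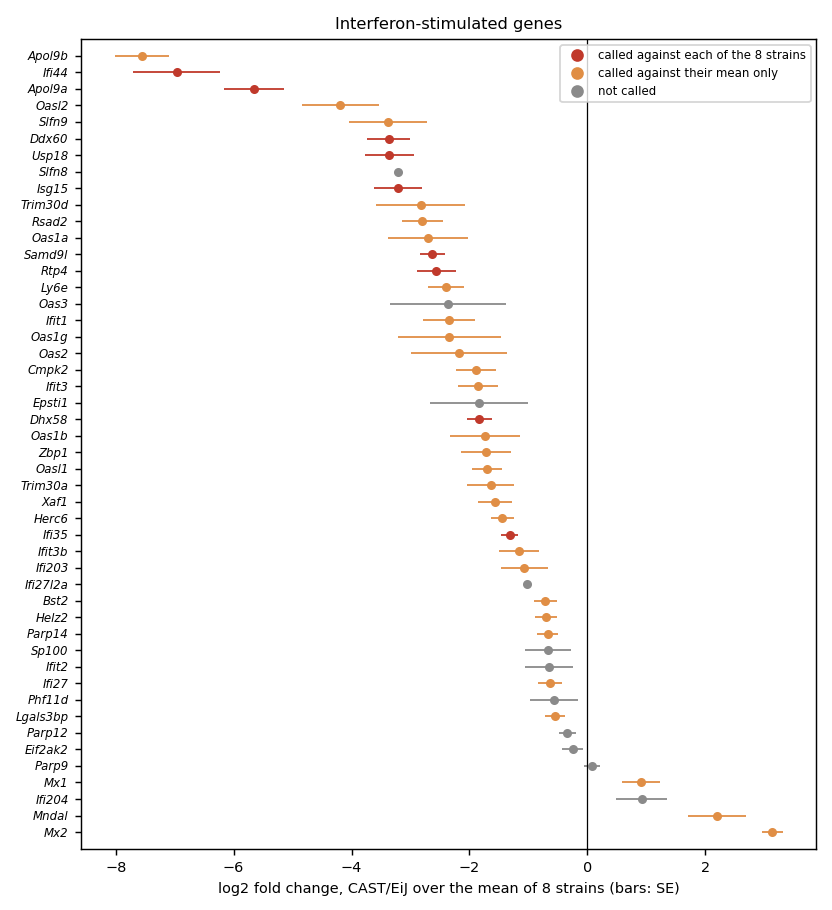
Log2 fold change of CAST/EiJ over the mean of 8 strains (points, bars SE) for 48 interferon-stimulated genes; the SE of Slfn8 and Ifi27l2a, neither of them called, exceeds the axis and is not drawn. The 9 particular members (red) are all left of 0, and Mx1, Mndal and Mx2 are called to the right of it.

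The immunity-related GTPases and guanylate-binding proteins attack the vacuoles of intracellular pathogens, and 11 of 18 were lower in CAST/EiJ. Iigp1 had 0.562, 0.393 and 0.567 CPM in CAST/EiJ and 101.6 to 353 CPM (median 219) in the other libraries. No strain was near CAST/EiJ, since the lowest other mean was 139.5 CPM in WSB/EiJ, and the log2 fold change was -8.68 (SE 0.38, adjusted p = 2.38e-15). Gm4951, a related GTPase, had 0.0516 to 0.423 CPM beside 3.57 to 82.8, and Gbp7 had 0.355 to 0.665 beside 8.30 to 52.7; both were particular and without overlap. Gm12185, a predicted member of the family, went the other way, with 22.0, 26.9 and 39.1 CPM in CAST/EiJ and at most 3.47 elsewhere (log2 fold change 8.89, SE 0.32). Only 1 of the 18 genes, itself lower, had whole counts in all libraries, namely Gm4951, and Iigp1 had divided reads in 3 libraries.

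Of 29 genes of MHC class I presentation 18 were lower and 1 (H2-Q1) higher, with a median of -0.83. Class I genes summed to 1470 to 1585 CPM in CAST/EiJ and to 1499 to 6682 in the others, and 1 of the 7 members with whole counts in all libraries was lower. H2-T22 was the particular member (8.85 ± 0.954 CPM, SD, n = 3, beside 12.3 to 123.4). B2m, the shared light chain, was lower at -0.40 (SE 0.15), as was Psmb8, an immunoproteasome subunit, at -1.84 (SE 0.28). Class I genes are among the most variable of the genome between strains, and their reads are often divided.

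Complement and acute phase proteins are made by hepatocytes and secreted into plasma. Of 34 complement genes 17 were lower and 6 higher, 4 of the lower ones particular. C1ra and C1rb, which are near-identical and code for the protease that starts the classical pathway, summed to 134.7 to 162.5 CPM in CAST/EiJ and to 241 to 774 elsewhere. Singly, C1ra was particular and lower at -1.62, and C1rb was higher by 3.65. C8g, a subunit of the pore complex, had 168, 204 and 181 CPM beside 259 to 719 (median 384), without overlap (log2 fold change -1.14, SE 0.19). Cd59a, which shields cells from that pore, had 12.7, 14.4 and 14.4 CPM beside 28.7 to 99.3, at -2.12 (SE 0.15). C4a was among the higher genes, at 2.62 (SE 0.14), with counts divided in all 27 libraries.

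Of 25 acute phase proteins 8 were lower and 4 higher. Without CAST/EiJ replicate 5 none was higher. Apcs, serum amyloid P, had 42.1, 53.0 and 81.9 CPM in CAST/EiJ and 66.8 to 889 CPM (median 263) in the others, so replicate 5 overlapped the lowest of them (log2 fold change -2.46, SE 0.26, adjusted p = 4.19e-08). Saa4 had 44.4, 65.0 and 135.5 CPM beside 169.8 to 417, at -1.66 (SE 0.25). The inducible Saa1 and Saa2 did not follow it. Saa2 had 3.55, 7.25 and 139 CPM and Saa1 3.04, 8.28 and 142, so in each gene replicate 5 stood far above replicates 1 and 4. The other libraries had 2.38 to 342.0 CPM of Saa2 and 5.90 to 487.5 of Saa1. Saa2 was called higher (log2 fold change 1.81, SE 0.69, adjusted p = 0.0412) and Saa1 was not. Lcn2, lipocalin, had 0.236 to 1.29 CPM in CAST/EiJ and 0.0962 to 571 elsewhere, lower at -4.19 (SE 0.80).

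Among particular genes with at least 10 CPM and divided reads in at most 9 libraries, those with the largest increases code for proteins of different kinds. Gsdma3 (chromosome 11, 98626360 to 98638226 on GRCm38) codes for a gasdermin, a pore-forming protein known from skin and gut epithelium. It had 60.0, 47.8 and 54.1 CPM in CAST/EiJ and at most 0.184 CPM in any other library, and its neighbour Gsdma2 had 1.09 to 1.80 CPM where no other library had more than 1 count. Tas1r1, a subunit of the umami taste receptor, had 36.6, 64.4 and 38.9 CPM beside 0 to 0.593 (log2 fold change 8.40, SE 0.26, adjusted p = 2.29e-18). Frem2, an extracellular matrix protein, had 15.9, 15.5 and 20.7 CPM, where the next strain, PWK/PhJ, had a mean of 5.19. In each of these genes the 3 CAST/EiJ libraries lay above all others.

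Defb1, an antimicrobial defensin, had 19.5, 21.9 and 17.2 CPM beside 0.0930 to 4.60. Susd4, a complement inhibitor, had 40.9, 26.9 and 22.5 CPM beside 0.0255 to 6.48 (log2 fold change 4.89, SE 0.20). Bicc1 (an RNA-binding protein), Bace2 (an aspartyl protease), Gna14 (a G protein subunit), Fam129b and Rhoc (a small GTPase) were higher by 4.71, 3.63, 3.01, 2.83 and 2.41. For Fam129b replicate 1 stood apart, with 61.6 CPM beside 24.3 and 26.9 in replicates 4 and 5. By difference in CPM the order was led by Ftl1-ps1, Sult3a1, Sult3a2 and Eno1b, which have near-identical copies and divided reads in 24 to 27 libraries and are described below. Of those after them, Vwa8, a mitochondrial ATPase, had 314, 369 and 255 CPM beside 88.0 to 226 (log2 fold change 1.24, SE 0.11), and Etnk2, ethanolamine kinase, had 277, 230 and 185 beside 84.4 to 163 (1.00, SE 0.13).

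Of the particular genes with the largest decreases among those with at least 10 CPM in each other strain and divided reads in at most 9 libraries, Rarres1, a retinoid-induced membrane protein, had 0.0591, 0.211 and 0.258 CPM in CAST/EiJ and 14.98 to 110.5 CPM (median 62.0) in the others (log2 fold change -8.33, SE 0.36, adjusted p = 1.58e-15). Hao2, a peroxisomal hydroxyacid oxidase, had 0.798, 3.32 and 1.86 CPM beside 11.4 to 137. Pon2, a paraoxonase, had 3.55, 4.11 and 3.61 CPM beside 27.3 to 60.0 (median 43.9; log2 fold change -3.52, SE 0.15). Impad1, a Golgi phosphatase, had 6.83, 7.88 and 8.97 CPM beside 36.5 to 74.1. Car3, carbonic anhydrase of liver and muscle, had 129, 151 and 64.0 CPM beside 341 to 1980, and Rdh11, a retinol dehydrogenase, had 13.2 to 15.2 beside 30.7 to 179. None of these genes had a CAST/EiJ library within the range of the other strains.

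Protein-coding genes that CAST/EiJ alone lacked or alone expressed were few. With at most 3 counts in each CAST/EiJ library and at least 1 CPM in each other strain there were 2, Nox4 and Fam213b. Nox4, an NADPH oxidase that produces hydrogen peroxide, had 0 or 1 count per CAST/EiJ library and 1.43 to 25.0 CPM (median 9.84) in the others, at least 100.2-fold lower. The other genes of oxidases that make superoxide or peroxide were mostly not called: of 8 tested, 2 were lower, Nox4 and Xdh (-0.79, SE 0.12). The Nox4 partner Cyba had 0.825 to 0.946 CPM and was not called. Fam213b, a prostaglandin synthase, also had 0 or 1 count per library beside 1.89 to 23.3 CPM, at least 84.5-fold lower.

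In the opposite direction, 10 protein-coding genes had at least 1 CPM on average in CAST/EiJ and at most 3 counts in each of the 24 others. They were chosen by that threshold after the values were seen. Baiap2l2, a membrane-bending protein of epithelia, led with 4.49, 4.86 and 5.52 CPM, at least 44.7-fold higher than the floor in the others. Tspan10, a tetraspanin, had 1.51, 5.07 and 5.62 CPM, and Patl2, an oocyte RNA-binding protein, had 2.68 to 3.75. Tdpoz2 had 2.99 to 3.55 CPM and no count in any other library. The remaining 6 were Gsdma2, Popdc3, Mfsd4b2, Nlrp9c, Spock1 and Gm5678, at means of 1.17 to 1.41 CPM.

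Enzymes of drug and hormone metabolism differed in both directions, often within a family. Of 47 cytochromes P450 of families Cyp1 to Cyp3, 15 were higher and 17 lower. Cyp1a1, the classical target of the aryl hydrocarbon receptor, had 10.3, 8.03 and 5.16 CPM in CAST/EiJ and 0.0502 to 1.06 CPM (median 0.406) in the others (log2 fold change 4.27, SE 0.24). Its neighbour Cyp1a2 was lower, at 505, 380 and 326 CPM beside 496 to 1319 (-1.03, SE 0.19), and Ahr itself was higher by 0.56 (SE 0.14). Reads of Cyp1a1 and Cyp1a2 were divided in all 27 libraries. Cyp2j5 and Cyp2j6, epoxygenases, were both particular and lower, with 253, 278 and 257 CPM beside 381 to 1323 for Cyp2j5 and 12.6 to 15.99 beside 25.0 to 149 for Cyp2j6. Cyp3a57, Cyp2d11 and Cyp2d34 were particular and higher at low levels, with means of 2.68, 5.21 and 6.63 CPM.

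Of 25 glutathione S-transferases, enzymes that conjugate electrophiles to glutathione, 9 were higher and 5 lower. Gstp3 had 160, 165 and 136 CPM beside 0.1997 to 14.1 (log2 fold change 4.96, SE 0.12, adjusted p = 2.03e-20). The 3 Gstp genes together had 266 to 327 CPM in CAST/EiJ and 56.4 to 285 in the others. Gstt1 was particular and lower, with 11.8, 11.6 and 15.9 CPM beside 77.2 to 264 (median 194; -3.77, SE 0.15). Of 16 sulfotransferases 7 were higher and 6 lower. Sult3a1 and Sult3a2, which are near-identical and known as female-biased in mouse liver, together had 2432 to 2890 CPM beside 19.6 to 1243, a log2 ratio of 2.17. Sult5a1 had 0.0516 to 0.266 CPM beside 1.87 to 119.5, and Sult1b1, a thyroid hormone and phenol sulfotransferase, had 4.94, 4.08 and 3.30 beside 8.31 to 28.3.

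Of 16 carboxylesterases 8 were lower and 2 higher. Ces1e and Ces1d, neighbours in the Ces1 cluster, were lower at -2.46 and -1.66, and the 8 Ces1 genes together had 4347 to 4695 CPM beside 4742 to 10786. Ces2b had 124.5, 107.4 and 86.0 CPM beside 0 to 14.1 and Ces2c 3.93, 1.24 and 1.29 beside 13.7 to 78.4, so a pair of copies of the Ces2 cluster differed in opposite directions. The 7 Ces2 genes together had 626 to 758 CPM beside 211 to 1364, inside the range of the others. Reads of 10 of the 16 carboxylesterases were divided in more than 9 libraries, and the part of read division in these differences was not tested. Of 19 UDP-glucuronosyltransferases, 14 of them with reads divided in more than 9 libraries, 9 were lower and 5 higher. They included Ugt2b5 with 234, 238 and 214 CPM beside 467 to 1120 (-1.81, SE 0.15) and Ugt1a10 with 48.4, 47.2 and 38.5 beside 0.929 to 27.3 (3.36, SE 0.26). Adh4, an alcohol and retinol dehydrogenase, had 238, 260 and 208 CPM beside 41.0 to 131 (1.79, SE 0.14).

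Of 31 genes of heme and iron handling 12 were lower and 4 higher, with 7 lower without CAST/EiJ replicate 4 and 2 higher without replicate 1. Ftl1, the ferritin light chain, had 12.5, 10.2 and 11.6 CPM in CAST/EiJ and 637 to 2023 CPM (median 1624) in the others (log2 fold change -6.94, SE 0.23). Its processed copy Ftl1-ps1 had 1904, 1752 and 1658 CPM in CAST/EiJ and 1.94 to 796 (median 3.94) elsewhere. WSB/EiJ held the upper end, with 590 to 796 CPM, and no library of the other 7 strains exceeded 14.3. Summed over the gene and its copies the values were 1670 to 1916 CPM in CAST/EiJ and 822 to 2025 in the others, a log2 ratio of 0.20, so the total did not stand apart. Both features had divided reads in all 27 libraries. Steap3, the endosomal ferrireductase, had whole counts and was particular, with 3.67, 4.08 and 3.76 CPM beside 25.3 to 98.8 (median 46.2; -3.62, SE 0.19, adjusted p = 6.99e-14). Uros and Cpox, enzymes of heme synthesis, were particular and lower, at -1.63 and -1.04.

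Totals and single genes also differed in other families of near-identical copies. Serpina1a, an alpha-1-antitrypsin gene, had 340.2, 292.6 and 235.5 CPM in CAST/EiJ beside 4258 to 16131, while Serpina1b had 7890.0 to 9171.8 beside 4385 to 14563. The 6 Serpina1 genes together had 12336 to 17561 CPM beside 12769 to 51548, a log2 ratio of -0.91. Eno1b had 298.1, 298.1 and 313.5 CPM beside 0 to 216, Eno1 43.9 to 51.7 beside 83.9 to 351, and the pair together 347 to 357 beside 156 to 448. Of 28 major urinary protein genes 8 were higher and 9 lower, and the family total had a log2 ratio of 0.06; within it Mup20, the pheromone darcin, which males excrete, had 0 to 0.181 CPM beside 5.73 to 220.1. The plot of copies shows Ftl1 and Serpina1.

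**Figure D4:**
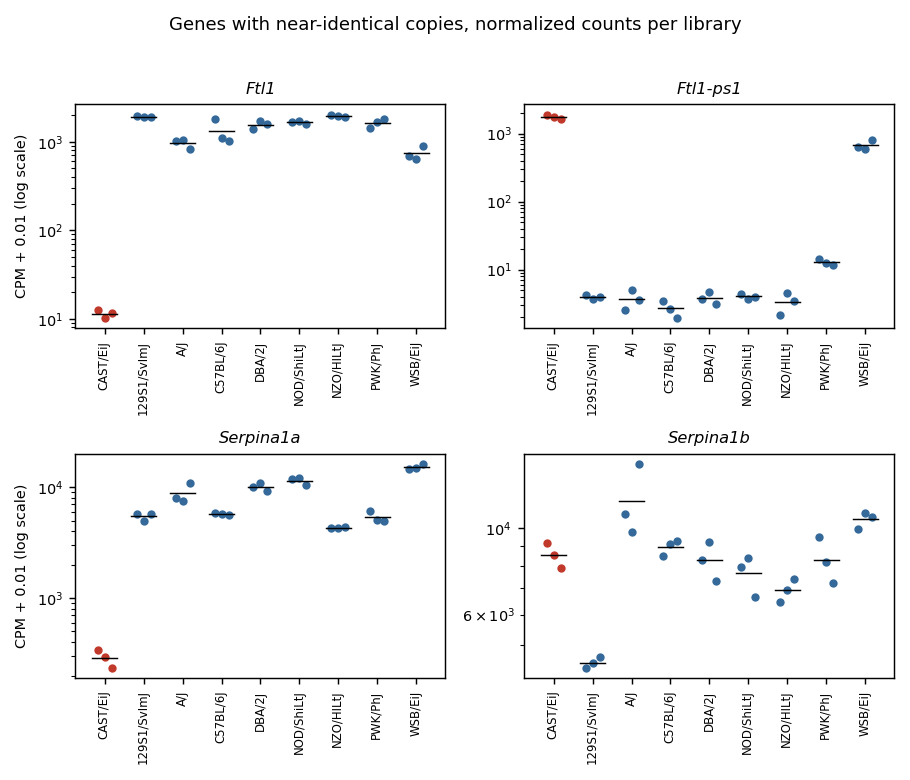
Normalized counts per library (points; CPM + 0.01, log axis) and strain means (lines) of Ftl1 and its copy Ftl1-ps1, and of Serpina1a and Serpina1b; CAST/EiJ is red. Ftl1 and Serpina1a lie far below the other strains in CAST/EiJ, where Ftl1-ps1 has 1658 to 1904 CPM (590 to 796 in WSB/EiJ, the next strain) and Serpina1b lies among the other strains.

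Processed pseudogenes, intronless copies of messenger RNAs, made up 77 of the 491 particular genes (15.7%) and 3.21% of the genes tested, and 73 of the 77 were higher in CAST/EiJ. For PWK/PhJ they were 57 of 356, of which 16 were higher, and for WSB/EiJ 9 of 100, all 9 higher. Ribosomal proteins have many such copies. Of 77 tested 43 were higher and 9 lower, with a median of 0.43, but 63 of them had divided reads in more than 9 libraries, and 24 were higher without CAST/EiJ replicate 4. Rpl29, for example, had 0.502, 1.06 and 0.412 CPM beside 8.79 to 78.4. Of the particular genes 47.3% had whole counts in all libraries, beside 58.7% of the genes tested. The genome sequence used for CAST/EiJ reads, its own or that of C57BL/6J, is not given in the sources used here, and the part of alignment in these copies was not tested.

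In some metabolic lists more genes were higher than lower, beside 20.1% higher and 17.8% lower over all genes. Of 35 genes of the urea cycle and amino acid catabolism 15 were higher and 4 lower. Without CAST/EiJ replicate 1 or 5, 8 and 9 were higher, and without replicate 4, 2 were lower. Oat, ornithine aminotransferase, had 1202, 1181 and 1185 CPM, above all other libraries (92.1 to 763, median 272; log2 fold change 2.16, SE 0.21, adjusted p = 8.46e-09). Asl, argininosuccinate lyase, had 599, 713 and 716 CPM beside 160 to 552.5, also without overlap. Cps1 and Otc, the first enzymes of the cycle, were higher by 0.44 and 0.37 and overlapped the other strains, and the call of Cps1 was lost without CAST/EiJ replicate 1 or 4. Otc was picked for its place in the cycle after its values were seen. Of 91 genes of oxidative phosphorylation 34 were higher (20 and 21 without CAST/EiJ replicate 4 or 5) and 5 lower. Reads of 35 of the 91 were divided in more than 9 libraries. The largest decreases were mitochondrially encoded, mt-Nd3, mt-Co1 and mt-Nd1 at -2.47, -1.31 and -1.08.

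Of 22 circadian clock genes 7 were higher (3 and 4 without CAST/EiJ replicate 1 or 4) and 1 lower (none without replicate 1, 4 or 5). The output genes varied between the CAST/EiJ libraries. Dbp had 15.96, 35.9 and 10.3 CPM beside 0.515 to 50.02 (log2 fold change 2.35, SE 0.64), and Per2 had 18.2, 14.6 and 6.91 beside 0.756 to 14.2. The labels give no time of day. Of 32 liver transcription factors and nuclear receptors 9 were higher and 2 lower (1 lower without CAST/EiJ replicate 1 or 5). Nr1h3, the oxysterol receptor LXR alpha, had 126, 105 and 109 CPM beside 39.9 to 88.6, above all other libraries (0.89, SE 0.11). Of 32 genes of bile acid synthesis and transport 6 were higher and 7 lower. Cyp7b1, the oxysterol hydroxylase, had 478, 327 and 315 CPM beside 25.9 to 955, and Cyp39a1 was higher by 1.94 (SE 0.17). PWK/PhJ had more Cyp7b1 than CAST/EiJ, with a mean of 864 CPM.

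Lists with few calls in either direction were immediate early genes (1 higher and none lower of 19), the unfolded protein response (1 and 1 of 24) and histone and DNA methylation enzymes (1 and 3 of 32). Without CAST/EiJ replicate 5 no immediate early gene was higher, and 2 genes of the unfolded protein response were lower. Of the methylation enzymes none was higher without replicate 1 or 4, and 3 were without replicate 5. Of these enzymes 1 was lower without replicate 1 and none without replicate 5. Of 26 genes of glucose handling 5 were higher and 2 lower, of 32 of fatty acid oxidation 7 and 5, of 20 of interleukin signalling 4 and 4, and of 31 of coagulation 2 and 9. Without 1 of the CAST/EiJ replicates these small counts moved: the 5 genes higher in glucose handling to 1 to 3, the 7 higher in fatty acid oxidation to as few as 2 (without replicate 4), the 5 lower there to 3 (without replicate 1 or 5), and the 4 and 4 of interleukin signalling to 2 and 2 without replicate 1. The 2 higher in coagulation became 1 without replicate 1, and the 2 lower in glucose handling became 1 without replicate 5. Among the interleukin genes the leptin receptor Lepr had 15.9, 21.8 and 37.7 CPM beside 0.510 to 18.3 (2.61, SE 0.21). Of 24 cell cycle genes 9 were lower (4 without CAST/EiJ replicate 1 or 4) and 1 higher (none without replicate 1 or 5). The largest decreases were in Cdkn1a (-3.51), Cdk1 (-3.26) and Ccnd1 (-2.44). Cdkn1a had 0.181 to 0.857 CPM beside 0.506 to 28.7, and Ccnd1 4.54 to 8.75 beside 2.44 to 83.9. The plot of shares sets the lists beside all genes.

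**Figure D5:**
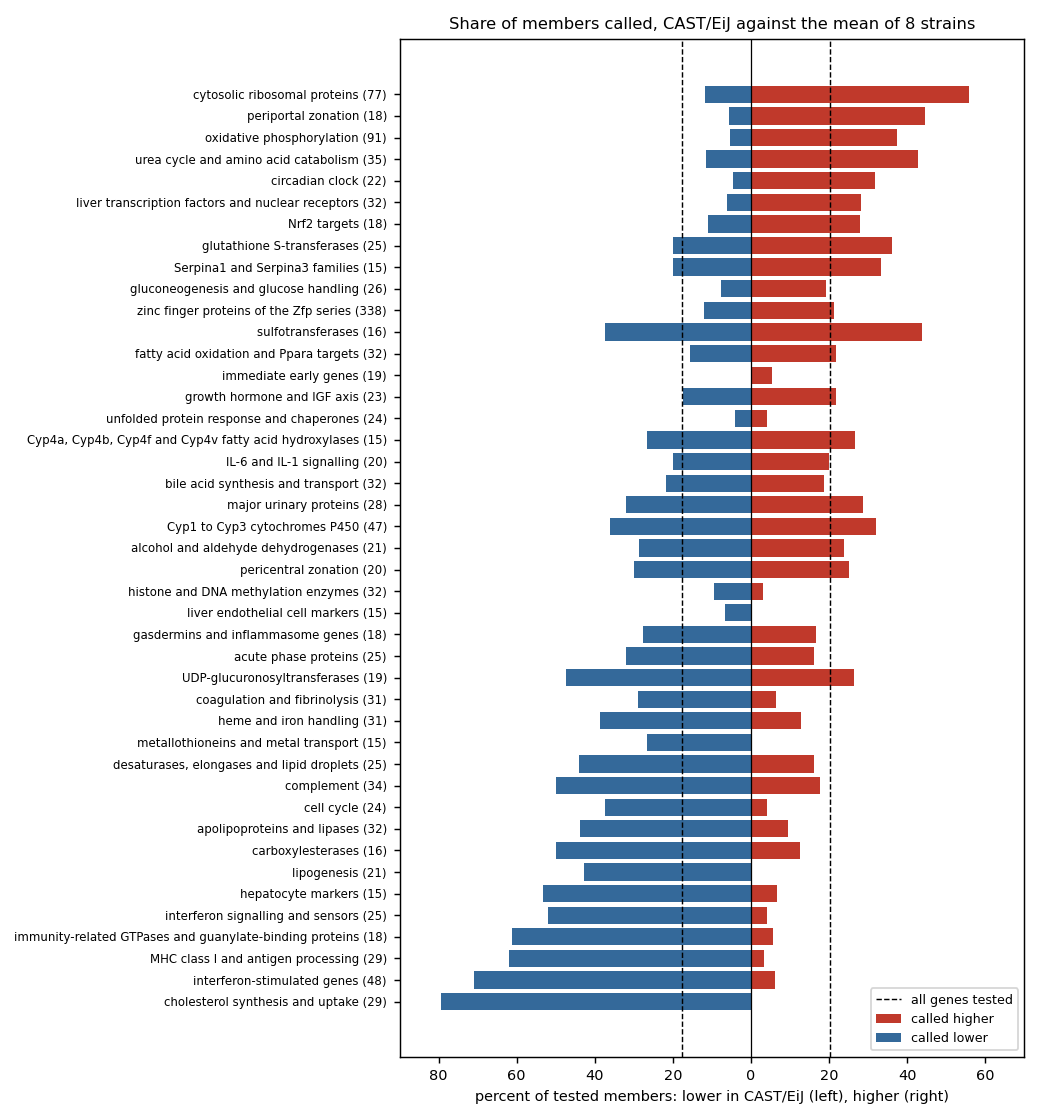
Percent of tested members called lower (left, blue) and higher (right, red) in CAST/EiJ for each list with at least 15 tested members (number in parentheses); dashed lines give the shares over all 14482 genes. Cholesterol and interferon-stimulated genes extend farthest to the left, with 23 of 29 and 34 of 48 members lower.

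Markers of other liver cells were measured beside these genes. Liver endothelial markers summed to 84.3, 224.6 and 221.8 CPM in CAST/EiJ replicates 1, 4 and 5 and to 81.7 to 1066 in the others, so replicate 1 was near the lowest of all libraries; 1 of 15 markers, Dnase1l3, was lower, and without replicate 1 none was lower and 1 higher. Stellate cell and fibroblast markers followed the same order, with 33.3, 80.1 and 79.1 CPM, beside 35.2 to 207 in the others, so replicate 1 was below all of them, and Acta2 was at 0 in the CAST/EiJ libraries. Of 13 tested, 5 were lower, among them Lum, and 1 was lower without replicate 1. Bile duct markers summed to 3.61 to 6.43 CPM beside 1.72 to 9.90, and neutrophil markers to 0.355 to 0.928 beside 0.155 to 3.23. T and NK cell markers summed to 0 to 0.393 CPM beside 0.124 to 2.60 (median 0.743), B cell markers to 0.887 to 1.78 beside 0.829 to 30.7 (median 4.64), and red blood cell markers to 2.19 to 6.70 beside 4.71 to 36.6 (median 14.85). In these last 3 lists the mean CAST/EiJ sum was below the mean sums of all 8 other strains, although libraries overlapped. The part of these 3 lists in the lower interferon-stimulated genes was not tested. Cd2, Cd3d, Cd3e, Cd5 and Gzma (T and NK cells) and Ly6g (neutrophils) were at 0 in CAST/EiJ. Dendritic cell markers summed to 2.45 to 4.02 CPM beside 0.484 to 3.84, and of that sum 1.81 to 3.55 CPM was Xcr1, the sole particular gene of these lists, with a log2 fold change of 3.52. Siglech, of the same list, was lower at -3.80, and the median of the 5 markers tested was -0.41. Without CAST/EiJ replicate 1, 4 or 5 no dendritic cell marker was lower. The part of these cells in the differences above was not tested beyond the covariates given.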

How the data were processed

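Per the labels' protocols, column-purified, DNase-treated total RNA was selected for poly(A) and made into TruSeq v2 libraries, whose name states no strand protocol. The authors deposited a table of estimated counts (expected counts) for 43346 Ensembl genes in 27 libraries; 14.71% of values were not whole, and every column was matched to a sample. Per the submitters' processing notes, FastQC 0.11.5, DESeq2 and the build GRCm38/mm10 were used. Aligner, counter and annotation release are not given in the sources used here.

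Counts were rounded. Symbols and coordinates came from GENCODE M21 (GRCm38), which named 42462 IDs. In R 4.3.3, edgeR 4.0.16 (limma 3.58.1) fitted a quasi-likelihood model with strain as the only factor to genes passing filterByExpr, with TMM scaling. CAST/EiJ was contrasted with the mean of 8 strain means. SE was derived from F. For particular genes, the largest of 8 pairwise p-values was used where all differences had 1 sign. P-values were adjusted by Benjamini and Hochberg over all genes, and called under 0.05. Levels of lists are mean log2 CPM, computed after adding a prior count of 2. Lower bounds used a floor of 3 counts per library and cover counting error only. The models were tested on simulated data.

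Named genes were, among particular protein-coding genes without overlap, the 12 largest increases and decreases with at least 10 CPM and divided reads in at most 9 libraries, the 8 largest CPM differences in each direction, up to 3 members of each of 54 lists in each direction, cell markers, Nox4 and Gsdma3. Further members of a list or family were named for their role after their values were seen. Some genes under these rules are not reported here. Members and lists were chosen with earlier results of these data known.

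Alternatives were DESeq2 1.42.0, median-of-ratios size factors, other filters, no rounding, whole counts only, the replicate number as a block, marker covariates, a GC trend removed, and each strain or library left out.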

Additional observations from a re-analysis of the deposited data

How the results depend on the processing

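The number of genes higher and lower than the mean of the strains was 1618 and 1464 with whole counts in all libraries only, where 8497 genes were tested, and 1738 and 1455 with the replicate block. Particular genes numbered 89 higher and 130 lower with whole counts only, 130 and 143 with the replicate block, 133 and 154 with Kupffer and endothelial covariates, 387 and 409 without PWK/PhJ, and 471 and 493 without PWK/PhJ and WSB/EiJ. With whole counts only, 20 interferon-stimulated genes, 1 GTPase and 1 MHC class I gene were lower, of 24, 1 and 7 tested. With the replicate block 13 cholesterol genes were lower. Fewer strains to differ from and fewer genes tested are part of these settings; otherwise the cause was not tested. Leaving out each library in turn gave 2143 to 3153 genes higher and 1877 to 2730 lower, 185 to 252 particular genes higher and 158 to 246 lower, 28 to 35 interferon-stimulated genes, 8 to 11 GTPases, 15 to 19 MHC class I genes and 22 to 24 cholesterol genes lower. The other 341 such counts stayed within 1.5 times. Over all lists, counts of members called moved by more than 1.5 times in 329 values and stayed within that in 4341, and medians moved by more than the spread of the CAST/EiJ libraries in 184 and by less in 2241. The particular genes named by size of change kept direction and call in all 1697 values computed. Without a filter the median of all genes was -0.12. With a GC trend removed, 58.0% of calls were higher in place of 53.2%. Same-numbered libraries share only a number, so the replicate block pairs nothing known: deviations of same-numbered libraries correlated at -0.20 to 0.17 in 9 pairs with CAST/EiJ, over 0.1 in 4. Replicate 5 exists in CAST/EiJ only, so the block fits that library by its own term. Depth limits genes of a few counts: 1 count was worth 0.0516 CPM in CAST/EiJ replicate 5, the shallowest library.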

Other observations

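Particular genes were spread over the genome. Their share of tested genes ran from 1.67% on chromosome 14 to 5.1% on chromosome 4 among the autosomes, and 15 lay on the X chromosome (3.37%). Of 4 tested genes annotated to the Y chromosome 1 was particular, as was 1 of 15 mitochondrial genes. Neighbouring tested genes that were particular in the same direction occurred as 26 pairs and in no longer run. Some pairs were related genes, such as Gsdma3 with Gsdma2, Gstp2 with Gstp3, C1ra with C1s1 and Ces1d with Ces1e. Others held a gene of the lists above beside an unrelated gene, such as Ddx60 with Msmo1, Isg15 with Agrn, Sc5d with Tbcel, Cpox with Cldnd1 and Irf5 with Kcp.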
